A study of Mus musculus with 22 samples.

Results

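The genes described here are 40 genes of mitosis and of the G2/M step before it: mitotic cyclins, kinases, checkpoint, kinetochore, spindle and cytokinesis genes. They were chosen by symbol, and every probe set annotated to a member symbol alone was read. No probe set of the arrays was annotated to Ccnb1 (cyclin B1) alone, so 39 of the 40 were measured. All 39 passed the signal filter, among 16997 named genes that passed it. Each gene was represented by its probe set with the highest mean signal. In sorted mouse bone marrow, 38 of the 39 were called lower in CD45+ Sca1+ cells than in cells with neither marker (adjusted p under 0.05 by limma), where 9.03% of all genes were, and the median over the 39 was 4.7-fold lower. In CD45+ Sca1- cells 33 of the 39 were called lower than in the same double-negative cells, where 7.62% of all genes were, and the median was 3.57-fold lower. That second count was 11, where 2.78% of all genes were called lower, when the array run was a block in the fit. Array runs were inferred from recorded hybridization times and are called wash runs below.

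RNA of bone marrow cells sorted by CD45, a phosphatase of the white blood cell surface, and Sca1, a surface antigen of blood stem cells and some mature blood cells, was hybridized to a pair of Affymetrix chips per sample, 22 arrays for 11 samples. The OGCsort set held 3 samples with both markers (+/+, sort numbers 1, 5 and 6), 3 with CD45 alone (+/-, sort numbers 1, 7 and 9) and 3 with neither (-/-, sort numbers 4, 5 and 8), all at a stated purity of 90%, and the order of the signs was taken from the run records. A second set, CPGSE, held 2 more +/+ samples (sort numbers 4 and 6), stained with CD45-APC and Sca1-PE, at a stated purity of 95 to 98%. The labels give no treatment, genotype, strain or age, and do not say whether samples came from separate or pooled animals. The p-values therefore cover the spread among these samples alone, which may be technical.

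A cell commits to division when cyclin A and cyclin B partners switch on the kinase Cdk1. The chromosomes condense, the spindle attaches to their kinetochores, and the spindle checkpoint holds back the anaphase-promoting complex, a ubiquitin ligase, until every chromosome is attached. Most of these genes are transcribed late in the cell cycle, and their mRNA is low in resting cells. In bone marrow, the early erythroblasts that give rise to red cells and the immature myeloid and lymphoid precursors divide, whereas most mature blood cells do not. In bulk RNA, fewer dividing cells and less RNA of a gene per cell cannot be told apart.

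Promoters of these genes often carry the cell cycle genes homology region (CHR, letters TTTGAA), bound by the MuvB complexes, and CCAAT boxes (letters CCAAT), bound by NF-Y. RefSeq promoters (build GRCm38.p6, 250 bases before to 50 after the annotated start) were matched for 34 of the 40 genes, and both motifs were searched on both strands, so that TTCAAA and ATTGG count as matches. Matches that overlap were counted separately. The promoters of 4 members that carry both motifs and had the largest differences between +/+ and -/- cells are shown first, with matches in capitals. Ube2c lies at chr2:164769679-164769978 (+ strand), Mki67 at chr7:135716330-135716629 (- strand), Hmmr at chr11:40733388-40733687 (- strand) and Cenpf at chr1:189688037-189688336 (- strand). Each is given 5′ to 3′ in the direction of the gene. In Ube2c a pair of CCAAT matches on opposite strands overlap in 1 stretch of capitals.
Ube2c: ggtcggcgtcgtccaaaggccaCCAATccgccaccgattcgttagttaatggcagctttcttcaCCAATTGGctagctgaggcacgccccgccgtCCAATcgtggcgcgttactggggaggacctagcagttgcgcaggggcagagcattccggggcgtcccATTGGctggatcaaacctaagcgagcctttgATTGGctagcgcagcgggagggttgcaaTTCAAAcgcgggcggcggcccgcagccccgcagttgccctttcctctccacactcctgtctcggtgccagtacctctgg
Mki67: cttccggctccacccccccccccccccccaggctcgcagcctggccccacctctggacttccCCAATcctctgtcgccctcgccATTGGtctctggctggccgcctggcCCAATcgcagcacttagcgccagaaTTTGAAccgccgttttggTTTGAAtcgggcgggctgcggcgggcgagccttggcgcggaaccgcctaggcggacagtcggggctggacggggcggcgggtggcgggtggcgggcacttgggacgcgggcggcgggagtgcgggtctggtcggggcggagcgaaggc
Hmmr: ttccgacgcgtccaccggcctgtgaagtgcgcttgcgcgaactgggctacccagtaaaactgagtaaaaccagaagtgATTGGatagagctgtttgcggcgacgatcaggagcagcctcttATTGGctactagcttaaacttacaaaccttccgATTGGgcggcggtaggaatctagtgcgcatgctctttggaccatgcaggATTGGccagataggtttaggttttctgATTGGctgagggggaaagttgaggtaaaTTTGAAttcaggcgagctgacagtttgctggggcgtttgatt
Cenpf: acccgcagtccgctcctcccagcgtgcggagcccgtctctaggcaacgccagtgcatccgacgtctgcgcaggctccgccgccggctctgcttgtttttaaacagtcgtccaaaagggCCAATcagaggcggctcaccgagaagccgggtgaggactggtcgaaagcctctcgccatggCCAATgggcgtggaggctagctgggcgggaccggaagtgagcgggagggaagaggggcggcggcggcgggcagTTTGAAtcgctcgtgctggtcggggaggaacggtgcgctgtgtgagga
Nusap1, at chr2:119618048-119618347 (+ strand), and Nuf2, at chr1:169531415-169531714 (- strand), are shown because neither set of letters was found in their windows.
Nusap1: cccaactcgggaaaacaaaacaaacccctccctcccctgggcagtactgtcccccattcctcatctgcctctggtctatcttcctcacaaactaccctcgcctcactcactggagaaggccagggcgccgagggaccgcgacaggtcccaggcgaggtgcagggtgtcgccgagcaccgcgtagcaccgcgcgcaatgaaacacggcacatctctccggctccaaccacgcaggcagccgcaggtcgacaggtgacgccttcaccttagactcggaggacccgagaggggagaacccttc
Nuf2: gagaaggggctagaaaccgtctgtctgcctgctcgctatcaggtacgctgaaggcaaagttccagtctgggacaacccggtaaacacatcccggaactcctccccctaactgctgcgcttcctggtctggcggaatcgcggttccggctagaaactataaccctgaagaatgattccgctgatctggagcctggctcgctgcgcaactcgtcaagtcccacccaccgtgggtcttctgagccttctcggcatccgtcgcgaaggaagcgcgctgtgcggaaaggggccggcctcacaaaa

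The CHR letters were found in 26 of the 34 promoters (76.5%), against 13.2% of the 13535 promoters of genes that passed the signal filter and 18.1% of all 27025 promoters. A CCAAT match was found in 26 of the 34 (76.5%), against 38.1% of the genes past the filter and 37.9% of all promoters. Both motifs together were found in 22 of the 34 (64.7%), against 5.24% of the genes past the filter. Neither was found in Birc5, Mad2l1, Nuf2 and Nusap1, 4 of the 34 (11.8%), against 53.9% of the genes past the filter. The 33 CHR matches in members had a median position of 3 bases past the start, and the 63 CCAAT matches a median of 67 bases before it (position -67). Thus the CHR letters lay mostly around the start and the CCAAT letters mostly upstream of it. Members with and without the CHR letters overlapped in their differences between +/+ and -/- cells: the median log2 fold change was -2.53 in the 26 with them (range -4.13 to -1.39) and -1.99 in the 7 measured ones without (range -3.07 to -1.25). Nusap1, with neither motif, had a log2 fold change of -3.07. A match is a description of the letters and not evidence of binding.

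**Figure D1:**
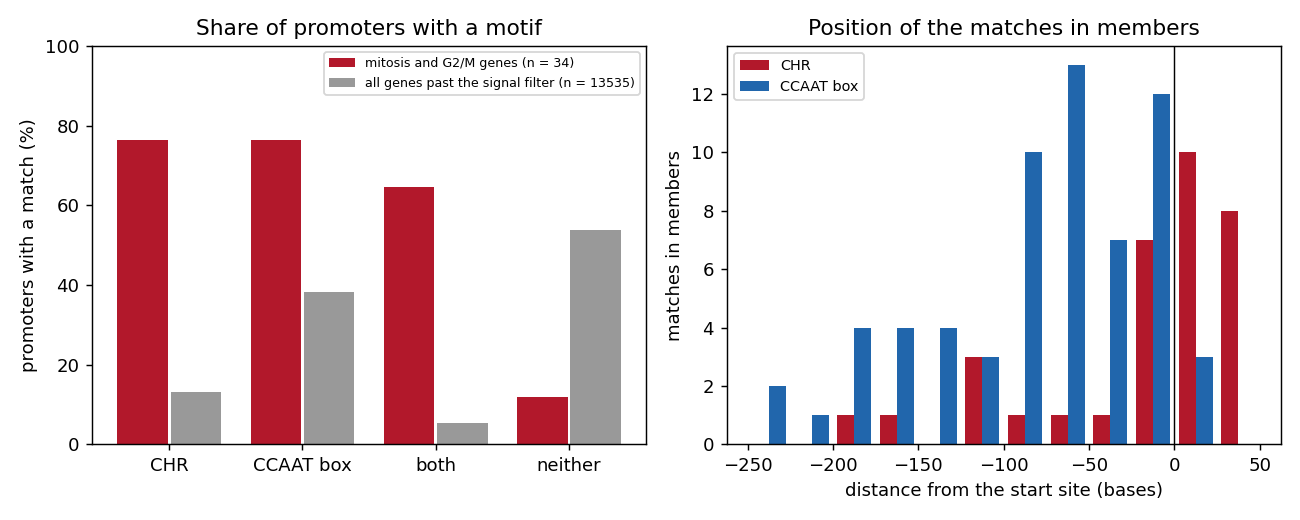
Left, share of promoters (%) with the CHR letters, a CCAAT box, both or neither, for the 34 mitosis and G2/M genes with a promoter (red) and for the 13535 genes past the signal filter (grey). Right, number of matches in the members by distance from the annotated start, in bins of 25 bases; CHR matches sit around the start (median 3) and CCAAT matches upstream (median -67).

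Signals are given as rescaled intensity, with each array brought to a trimmed mean of 500, and a signal over 100 was taken as above the floor. A total of 38 or 39 members were above that floor in each of the 11 samples. Signals of different probe sets are not on a common scale, so levels are compared between samples of 1 gene and not between genes. Where a probe set was present on both chips (100 probe sets), its signal on chip B was 2.86 times that on chip A (median), and 5 members (Nek2, Cdca8, Bub1b, Cenpe and Tpx2) are represented on chip B. A gene was called when its adjusted p was under 0.05 in limma with Benjamini-Hochberg adjustment over all 40405 probe sets tested, and log2 fold changes are on the log2(signal + 32) scale.

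The sorted groups were first set against cell type markers. The summed signal of 8 leukocyte markers, Ptprc (CD45) among them, ranged between 77800 and 89700 in OGCsort +/+, 74300 and 77600 in CPGSE +/+, 57700 and 80700 in +/- and 946 and 15300 in -/- samples. The summed signal of the 10 erythroid markers measured ranged between 6870 and 8250 in OGCsort +/+, 7240 and 11800 in CPGSE +/+, 5630 and 7290 in +/- and 235000 and 366000 in -/- samples. The -/- cells thus carried erythroid RNA, with 10 of the 10 markers above the floor in every sample, and leukocyte RNA was lowest there, with 5 to 7 of the 8 leukocyte markers above the floor. The summed signal of 9 neutrophil granule markers ranged between 7530 and 31900 in OGCsort +/+, 12200 and 124000 in CPGSE +/+, 99200 and 396000 in +/- and 2040 and 20600 in -/- samples. The -/- sample of sort number 4 stood apart with 15300 for the leukocyte and 39700 for the B lymphoid markers, against 946 to 3140 and 2600 to 12000 in the other -/- samples. The ratio of 3′ to 5′ Gapdh signal on chip A, a sign of RNA quality, ranged between 9.14 and 24.8 in OGCsort +/+, 13.8 and 19.6 in +/- and 8.17 and 11.8 in -/- samples. Between +/+ and -/- samples all 10 erythroid markers were called lower, as was 1 of 7 megakaryocyte markers, where 9.03% of all genes were. All 8 leukocyte markers were called higher, where 12.9% of all genes were. So were 3 of 9 neutrophil, 4 of 10 B lymphoid, 6 of 9 T and NK lymphoid, 3 of 8 stem and progenitor and 1 of 10 stromal and endothelial markers. The counts of 1 of 7 and 1 of 10 are near those shares and are no result about their lists. The erythroid and leukocyte sums separated the -/- from all other samples, whereas the neutrophil sums and Gapdh ratios of +/+ and -/- samples overlapped. Between +/- and -/- samples neither the neutrophil sums nor the chip A Gapdh ratios overlapped. On chip B the Gapdh ratio was 8.57 to 20.9 in OGCsort +/+, 10.4 to 22 in +/- and 11.6 to 14.8 in -/- samples. The part of all these values in the differences of the mitotic genes was not tested.

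The first comparison asked how cells with both markers differ from cells with neither. Of the 39 measured genes, 38 were called lower in +/+ than in -/- cells (97.4%) and 0 higher, where 9.03% of all genes tested were called lower. The median log2 fold change of the members was -2.23, with quartiles of -2.76 and -1.84, against a median of -0.08 over all genes tested. In 38 of the 39 every +/+ sample was below every -/- sample, as in 20.3% of all genes, and in 0 of the 39 was every one above, as in 20.2% of all genes. The median member signal was 651, 738 and 659 in the +/+ samples and 3030, 3280 and 4050 in the -/- samples. The +/- cells were compared with the same 3 -/- samples, so the differences of both comparisons share their -/- values. There, 33 members were called lower (84.6%) and 0 higher, where 7.62% of all genes were called lower, and the median was -1.84, with quartiles of -2.27 and -1.41, against -0.03 over all genes. In 37 of the 39 every +/- sample was below every -/- sample, as in 17.3% of all genes. The 6 that were not called in this comparison were Foxm1, Nek2, Bub1b, Ttk, Ndc80 and Tpx2. On chip A, no wash run held +/- together with -/- samples. A wash run block on chip A, which represents 34 of the 39, links these groups only through the +/+ sample of sort number 6. The blocked estimates of these 34 members thus rest on that sample. With the wash run as a block, all 39 estimates were below 0, and 11 members were called lower in +/- cells, where 2.78% of all genes were. The 11 were Ccna2, Ccnb2, Aurkb, Cdca8, Ube2c, Cdca3, Cenpe, Cenpf, Kif11, Nusap1 and Mki67, and the other 22 lost their call. The fold moved by over 1.5 times in 10 members, Ccna2, Foxm1, Aurka, Ttk, Cdc20, Nuf2, Spc25, Kif2c, Hmmr and Anln. The same block left 36 members called lower in +/+ cells, where 7.34% of all genes were. Ttk (adjusted p = 0.0565 by limma) and Ndc80 (adjusted p = 0.0876) were no longer called. Within the shared wash run (chosen after the data were seen) 36 were called with a median of -2.17. On chip A both fits take the +/+ estimate from sort numbers 1 and 5 alone, so they are not separate checks.

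**Figure D2:**
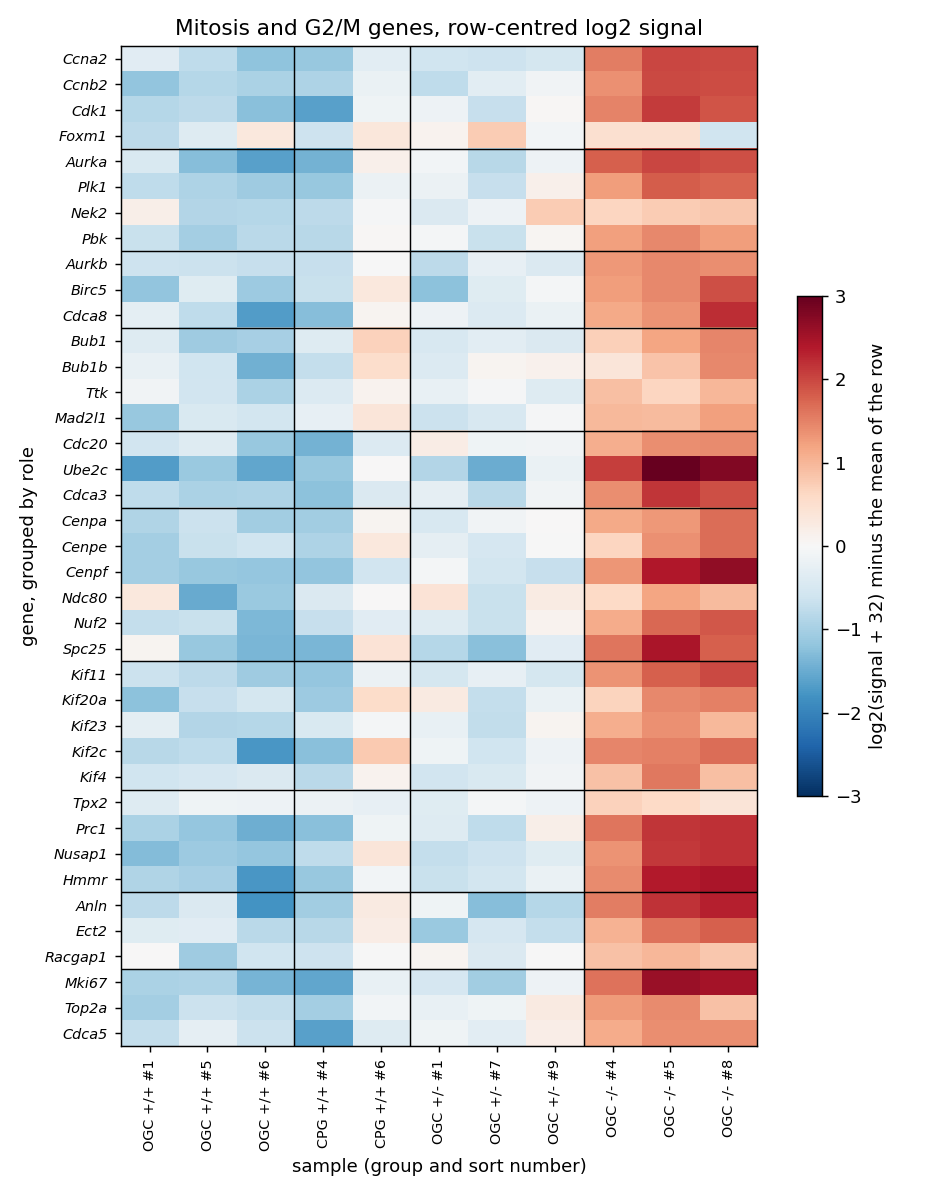
Row-centred log2(signal + 32) of the 39 measured genes (rows, grouped by role) in the 11 samples (columns, by group and sort number; OGC is OGCsort and CPG is CPGSE). The 3 -/- samples are above the row mean in every row but that of Foxm1, and the CPGSE sample of sort number 6 is above that of sort number 4 in 38 of 39 rows.

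Of the 4 measured genes among the cyclins, Cdk1 and the transcription factor Foxm1, the cyclins Ccna2 and Ccnb2 and Cdk1 were called lower in both CD45+ populations. Ccna2 (cyclin A2, which acts in S phase and at mitotic entry) had signals of 1690, 1240 and 903 in +/+ and 1400, 1390 and 1480 in +/- samples, against 6210, 8680 and 8600 in -/- samples. It was 6.11-fold lower in +/+ (log2 fold change -2.61 ± 0.25 SE, adjusted p = 1.03e-05 by limma) and 5.34 lower in +/- cells (adjusted p = 2.63e-05). All CD45+ samples were far below the mean of 7830 ± 1400 (SD, n = 3) in -/- samples. Cdk1, the kinase that drives entry into mitosis, had signals of 979, 1030 and 739 in +/+ and 1610, 1100 and 1830 in +/- samples, against 5080, 7760 and 6700 in -/- samples. It was 6.87-fold lower in +/+ (log2 fold change -2.78 ± 0.26 SE, adjusted p = 7.85e-06 by limma) and 4.27-fold lower in +/- cells (adjusted p = 0.000106). The OGCsort groups did not overlap, whereas the CPGSE +/+ sample of sort number 6, at 1640, lay within the range of the +/- samples. Ccnb2, a B-type cyclin partner of Cdk1, was 6.81-fold lower in +/+ and 4.5-fold lower in +/- cells. With the wash run as a block in the fit of +/- against -/- cells, Cdk1 was no longer called (log2 fold change -1.67, adjusted p = 0.0642 by limma), and Ccna2 stayed called at a log2 fold change of -1.75 (adjusted p = 0.0319).

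Foxm1, a transcription factor that switches on many G2/M genes, was the member that was not called in the first comparison. Its signals were 315, 423 and 716 in +/+ and 611, 978 and 532 in +/- samples, against 806, 805 and 363 in -/- samples. The samples of all groups overlapped, and the log2 fold change was -0.41 ± 0.38 SE in +/+ (limma adjusted p = 0.519) and 0.13 ± 0.38 SE in +/- cells (adjusted p = 0.874), where the wash run as a block gave -0.78 (adjusted p = 0.607). A second Foxm1 probe set, with a lower mean signal, had a log2 fold change of -1.71 in +/+ cells (limma adjusted p = 0.0378) and -0.39 in +/- cells (adjusted p = 0.703). The probe sets of Foxm1 thus disagreed on the call in +/+ cells.

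**Figure D3:**
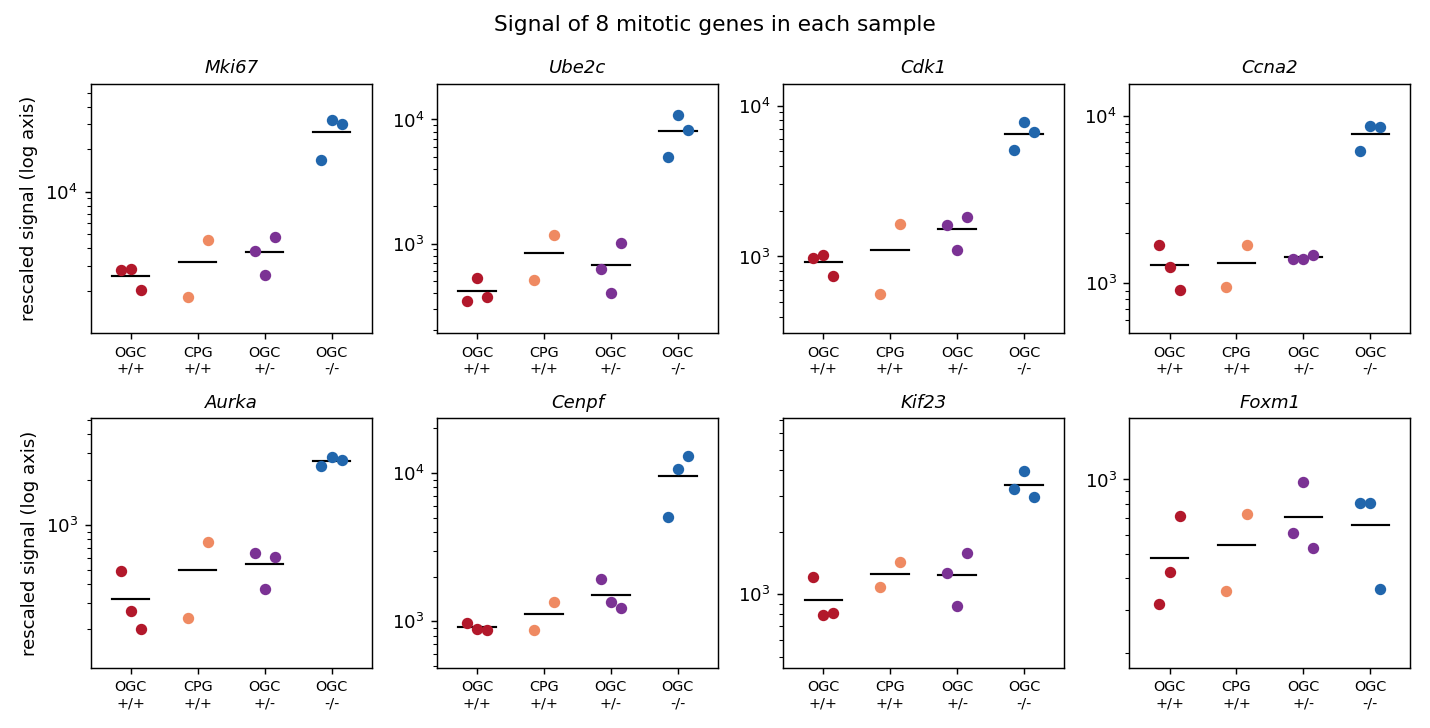
Rescaled signal (log axis) of 8 of the genes in each sample, with points for samples and a line for the group mean (OGC is OGCsort, CPG is CPGSE; n = 3, 2, 3 and 3). In 7 of the panels the 3 -/- samples lie above all other samples, and in the panel of Foxm1 all groups overlap.

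The 4 mitotic kinases were all called lower in +/+ cells, and 3 of them in +/- cells. Aurka (Aurora A, which matures centrosomes and builds the spindle poles) had signals of 490, 267 and 200 in +/+ and 648, 370 and 610 in +/- samples, against 2450, 2840 and 2700 in -/- samples. It was 8.12-fold lower in +/+ (log2 fold change -3.02 ± 0.32 SE, adjusted p = 2.46e-05 by limma) and 4.8-fold lower in +/- cells (adjusted p = 0.000335). A second Aurka probe set, on chip B, was called in neither comparison, with a log2 fold change of 0.02 in +/+ (limma adjusted p = 0.992) and 0.13 in +/- cells (adjusted p = 0.948). Pbk, a mitotic protein kinase, had signals of 1190, 923 and 1080 in +/+ and 1850, 1200 and 2010 in +/- samples, against 4530, 5280 and 4650 in -/- samples. Every CD45+ sample was below every -/- sample, and Pbk was 4.43-fold lower in +/+ (limma adjusted p = 3.52e-05) and 2.88-fold lower in +/- cells (adjusted p = 0.000702). Plk1, which acts from mitotic entry to cytokinesis, was 5.71-fold lower in +/+ and 3.57-fold lower in +/- cells. Nek2, a kinase of centrosome separation, was 2.38-fold lower in +/+ cells (adjusted p = 0.0282), and its log2 fold change of -0.68 in +/- cells was not called (adjusted p = 0.257). The probe sets of Nek2 disagreed. One on chip A was called in both comparisons, with log2 fold changes of -2.13 in +/+ and -1.78 in +/- cells. A second on chip B had -0.06 in +/+ (limma adjusted p = 0.941) and 0.07 in +/- cells (adjusted p = 0.941), and a further one on chip B had -0.75 in +/+ (adjusted p = 0.623) and -0.49 in +/- cells (adjusted p = 0.785). When the wash run was a block, no kinase was called in +/- cells: the limma adjusted p was 0.163 for Aurka, whose fold moved by over 1.5 times, 0.106 for Plk1 and 0.0727 for Pbk.

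Of the chromosomal passenger complex, which corrects wrong attachments of the spindle and later acts in cytokinesis, all 3 measured members were called lower in both CD45+ populations. Cdca8 (borealin, a subunit that targets the complex to centromeres) had signals of 17200, 12500 and 6620 in +/+ and 19000, 15900 and 18600 in +/- samples, against 46900, 54300 and 98500 in -/- samples. All CD45+ samples were below every -/- sample, although the -/- samples differed by more than the +/- samples. Cdca8 was 5.59-fold lower in +/+ (log2 fold change -2.48 ± 0.39 SE, adjusted p = 0.000435 by limma) and 3.54-fold lower in +/- cells (adjusted p = 0.00527). Aurkb (Aurora B, the kinase of the complex) was 4.1-fold lower in +/+ and 3.67-fold lower in +/- cells, and Birc5 (survivin) was 5.37-fold lower in +/+ and 4.3-fold lower in +/- cells. Of the 3, Birc5 lost its call in +/- cells with the wash run as a block (log2 fold change -1.80, adjusted p = 0.135 by limma).

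Of the 4 spindle checkpoint genes, all were called lower in +/+ cells, with a median log2 fold change of -1.70, the closest to 0 of the 10 roles, and 2 of the 4 in +/- cells. Bub1, a checkpoint kinase of the kinetochore, had signals of 190, 106 and 112 in +/+ and 174, 198 and 180 in +/- samples, against 443, 625 and 768 in -/- samples. It was 3.84-fold lower in +/+ (limma adjusted p = 0.00191) and 2.92-fold lower in +/- cells (adjusted p = 0.00995, and 0.0564 without the -/- sample of sort number 8). Bub1b (BubR1, a part of the inhibitor of the anaphase-promoting complex) had signals of 4430, 3360 and 1860 in +/+ and 3860, 5460 and 5590 in +/- samples, against 6570, 9350 and 14100 in -/- samples. No OGCsort +/+ or +/- sample reached the lowest -/- sample, whereas of the CPGSE samples, at 3110 and 7390, that of sort number 6 was above it. Bub1b was 3.12-fold lower in +/+ cells (limma adjusted p = 0.00415). In +/- cells its log2 fold change of -0.95 ± 0.35 SE was not called (adjusted p = 0.0872), although a chip A probe set of Bub1b with a log2 fold change of -1.12 was (adjusted p = 0.00964). A second chip B probe set of Bub1b was called in neither comparison, with a log2 fold change of -0.15 in +/+ (limma adjusted p = 0.892) and -0.01 in +/- cells (adjusted p = 0.995). Mad2l1 (Mad2, which binds Cdc20 at unattached kinetochores) was 3.39-fold lower in +/+ and 2.7-fold lower in +/- cells. Ttk (Mps1, the kinase that starts checkpoint signalling) was 2.62-fold lower in +/+ cells (adjusted p = 0.0123) and had a log2 fold change of -1.06 in +/- cells that was not called (adjusted p = 0.0556). None of the 4 was called in +/- cells with the wash run as a block, where Bub1 had a log2 fold change of -1.27 (adjusted p = 0.36 by limma), Mad2l1 -1.67 (adjusted p = 0.075) and Ttk -0.43 (adjusted p = 0.785).

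The partners of ubiquitin ligases held the member with the largest difference. Ube2c, the ubiquitin-conjugating enzyme that works with the anaphase-promoting complex, had signals of 343, 526 and 373 in +/+ and 625, 397 and 1010 in +/- samples, against 4980, 10800 and 8240 in -/- samples. The lowest -/- sample was far above the highest CD45+ sample. Ube2c was 17.5-fold lower in +/+ (log2 fold change -4.13 ± 0.35 SE, adjusted p = 3.48e-06 by limma) and 11.5-fold lower in +/- cells (-3.53 ± 0.35 SE, adjusted p = 1.68e-05). Cdc20, the activator that brings substrates to the complex at anaphase, had signals of 2120, 2440 and 1440 in +/+ and 3700, 2920 and 2960 in +/- samples, against 6840, 8440 and 8620 in -/- samples. It was 4.01-fold lower in +/+ (limma adjusted p = 6.25e-05) and 2.48-fold lower in +/- cells (adjusted p = 0.00205). Its +/+ samples were also all below its +/- samples. Cdca3, a factor in the breakdown of the mitosis inhibitor Wee1, was 6.54-fold lower in +/+ and 4.64-fold lower in +/- cells. Of these 3 genes, Cdc20 lost its call in +/- cells with the wash run as a block, at a log2 fold change of -0.67 (adjusted p = 0.411 by limma).

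All 6 kinetochore and centromere genes were called lower in +/+ cells and 5 of the 6 in +/- cells. Cenpf, a large protein of the outer kinetochore, had signals of 973, 893 and 878 in +/+ and 1940, 1360 and 1230 in +/- samples, against 5070, 10700 and 13000 in -/- samples. The +/+ samples were close to each other, at 915 ± 51.4 (SD, n = 3), whereas the -/- sample of sort number 4 was well below either other -/- sample. Cenpf was 9.45-fold lower in +/+ (log2 fold change -3.24 ± 0.31 SE, adjusted p = 1.04e-05 by limma) and 5.9-fold lower in +/- cells (adjusted p = 9.73e-05). Of the Ndc80 complex, which holds microtubules, Spc25 was 6.79-fold lower in both populations and Nuf2 5.53-fold lower in +/+ and 3.68-fold lower in +/- cells. Ndc80 itself was called lower in +/+ cells (3.2-fold, adjusted p = 0.024), with signals of 364, 80.2 and 117 in +/+ samples, and its log2 fold change of -0.91 in +/- cells was not called (adjusted p = 0.236). Cenpa, the histone variant that marks centromeres, was 4.7-fold lower in +/+ and 2.95-fold lower in +/- cells. Cenpe, a kinesin of the kinetochore, was 3.97-fold lower in +/+ and 2.81-fold lower in +/- cells. Cenpe and Cenpf stayed called in +/- cells with the wash run as a block. There, Spc25 had a log2 fold change of -1.94 (adjusted p = 0.125 by limma), Nuf2 -1.22 (adjusted p = 0.239) and Cenpa -1.28 (adjusted p = 0.146).

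The 5 kinesins, motors that move along microtubules, were called lower in both populations, but with the wash run as a block Kif11 alone stayed called in +/- cells. Kif23, a subunit of the centralspindlin complex of the midzone, had signals of 1210, 795 and 810 in +/+ and 1270, 876 and 1590 in +/- samples, against 3240, 3940 and 2940 in -/- samples. It was 3.55-fold lower in +/+ (limma adjusted p = 0.00033) and 2.72-fold lower in +/- cells (adjusted p = 0.00236), with no overlap with -/- samples. Kif2c, which takes microtubules apart at centromeres, had signals of 617, 650 and 312 in +/+ and 1030, 730 and 1010 in +/- samples, against 3160, 3280 and 3650 in -/- samples. The -/- samples were close together and all others were well below them: Kif2c was 6.35-fold lower in +/+ (limma adjusted p = 2.48e-05) and 3.58-fold lower in +/- cells (adjusted p = 0.000634). Kif11, which pushes the spindle poles apart, was 5.8-fold lower in +/+ and 4.41-fold lower in +/- cells. Kif20a, a motor of cytokinesis, was 4.08-fold lower in +/+ and 2.67-fold lower in +/- cells, and Kif4, a chromosome-bound kinesin, 3.1-fold lower in +/+ and 2.83-fold lower in +/- cells. With that block the log2 fold change of Kif2c in +/- cells was -0.89 (adjusted p = 0.298 by limma), that of Kif23 -1.18 (adjusted p = 0.232), that of Kif20a -1.85 (adjusted p = 0.216) and that of Kif4 -1.61 (adjusted p = 0.106).

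Among the spindle microtubule proteins, Prc1, Nusap1 and Hmmr were among the members with the largest differences, and Tpx2 had the smallest difference of the called ones. Prc1, which bundles the microtubules of the midzone, had signals of 964, 841 and 666 in +/+ and 1450, 1110 and 2150 in +/- samples, against 5840, 8490 and 8800 in -/- samples. It was 8.99-fold lower in +/+ (log2 fold change -3.17 ± 0.28 SE, adjusted p = 4.42e-06 by limma) and 4.92-fold lower in +/- cells (adjusted p = 8.32e-05). Its OGCsort +/+, +/- and -/- samples did not overlap, whereas the CPGSE +/+ sample of sort number 6, at 1750, lay within the range of the +/- samples. Hmmr, a microtubule-bound protein that helps to organise spindle poles, had signals of 847, 795 and 456 in +/+ and 1000, 1080 and 1390 in +/- samples, against 4360, 8530 and 8890 in -/- samples. It was 9.81-fold lower in +/+ (limma adjusted p = 9.07e-06) and 5.9-fold lower in +/- cells (adjusted p = 9.55e-05), again with no overlap among the 3 OGCsort groups. The CPGSE +/+ sample of sort number 6, at 1520, was above all +/- samples of Hmmr. Nusap1, which binds and stabilises spindle microtubules, was 8.39-fold lower in +/+ and 5.49-fold lower in +/- cells. Tpx2, the spindle factor that activates Aurora A, was called lower in +/+ cells on its chip B probe set by 1.72-fold (adjusted p = 0.0428), and its log2 fold change of -0.75 in +/- cells was not called (adjusted p = 0.0596). The other Tpx2 probe sets differed from it in size. One on chip A had log2 fold changes of -2.67 in +/+ and -1.93 in +/- cells, both called. A second on chip A had -1.77 in +/+ (limma adjusted p = 0.0456) and -0.96 in +/- cells (adjusted p = 0.311), and one more on chip B had -0.82 in +/+ (adjusted p = 0.0493) and -0.75 in +/- cells (adjusted p = 0.082). In this role Nusap1 alone stayed called in +/- cells with the wash run as a block, where Prc1 had a log2 fold change of -1.88 (adjusted p = 0.0535 by limma) and Hmmr -1.76 (adjusted p = 0.0834).

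The 3 cytokinesis genes were called lower in both populations, but none of them in +/- cells when the wash run was a block. Anln (anillin, a scaffold of the cleavage furrow) had signals of 228, 299 and 95.8 in +/+ and 376, 153 and 214 in +/- samples, against 1250, 1980 and 2230 in -/- samples. It was 8.09-fold lower in +/+ (log2 fold change -3.02 ± 0.41 SE, adjusted p = 0.000178 by limma) and 6.79-fold lower in +/- cells (adjusted p = 0.000467). With the block the log2 fold change in +/- cells was -1.57 (adjusted p = 0.234 by limma). Ect2, the exchange factor that activates RhoA at the furrow, had signals of 422, 425 and 298 in +/+ and 234, 377 and 319 in +/- samples, against 1160, 1760 and 1980 in -/- samples. It was 3.98-fold lower in +/+ (limma adjusted p = 0.00041) and 4.83-fold lower in +/- cells (adjusted p = 0.00019, and 0.0881 with the block). Ect2 and Spc25 were the members whose estimate was not lower in +/+ than in +/- cells. Racgap1, the partner of Kif23 in centralspindlin, was 2.71-fold lower in +/+ and 2.03-fold lower in +/- cells (adjusted p = 0.429 by limma with the block).

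The last group acts on chromosome structure, and its 3 genes were called lower in both populations. Mki67, whose protein (Ki-67) coats mitotic chromosomes and is the usual marker of cycling cells, had signals of 2790, 2830 and 2030 in +/+ and 3810, 2600 and 4830 in +/- samples, against 16800, 32300 and 30300 in -/- samples. It was 9.97-fold lower in +/+ (log2 fold change -3.32 ± 0.30 SE, adjusted p = 5.74e-06 by limma) and 6.95-fold lower in +/- cells (-2.80 ± 0.30 SE, adjusted p = 3.17e-05). The -/- sample of sort number 4 was the lowest of its group but still above every CD45+ sample. Top2a, the topoisomerase that untangles sister chromatids, had signals of 1710, 2210 and 2110 in +/+ and 2980, 3180 and 4180 in +/- samples, against 8560, 9380 and 6410 in -/- samples. It was 3.96-fold lower in +/+ (limma adjusted p = 5.18e-05) and 2.34-fold lower in +/- cells (adjusted p = 0.0027), and its OGCsort +/+ samples were all below its +/- samples. The CPGSE +/+ sample of sort number 6, at 3290, lay within the range of the +/- samples of Top2a. Cdca5 (sororin, which keeps sister chromatids together) was 3.6-fold lower in +/+ and 2.63-fold lower in +/- cells. Mki67 stayed called in +/- cells with the wash run as a block, whereas Top2a (log2 fold change -1.34, adjusted p = 0.108 by limma) and Cdca5 (-1.25, adjusted p = 0.124) did not.

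**Figure D4:**
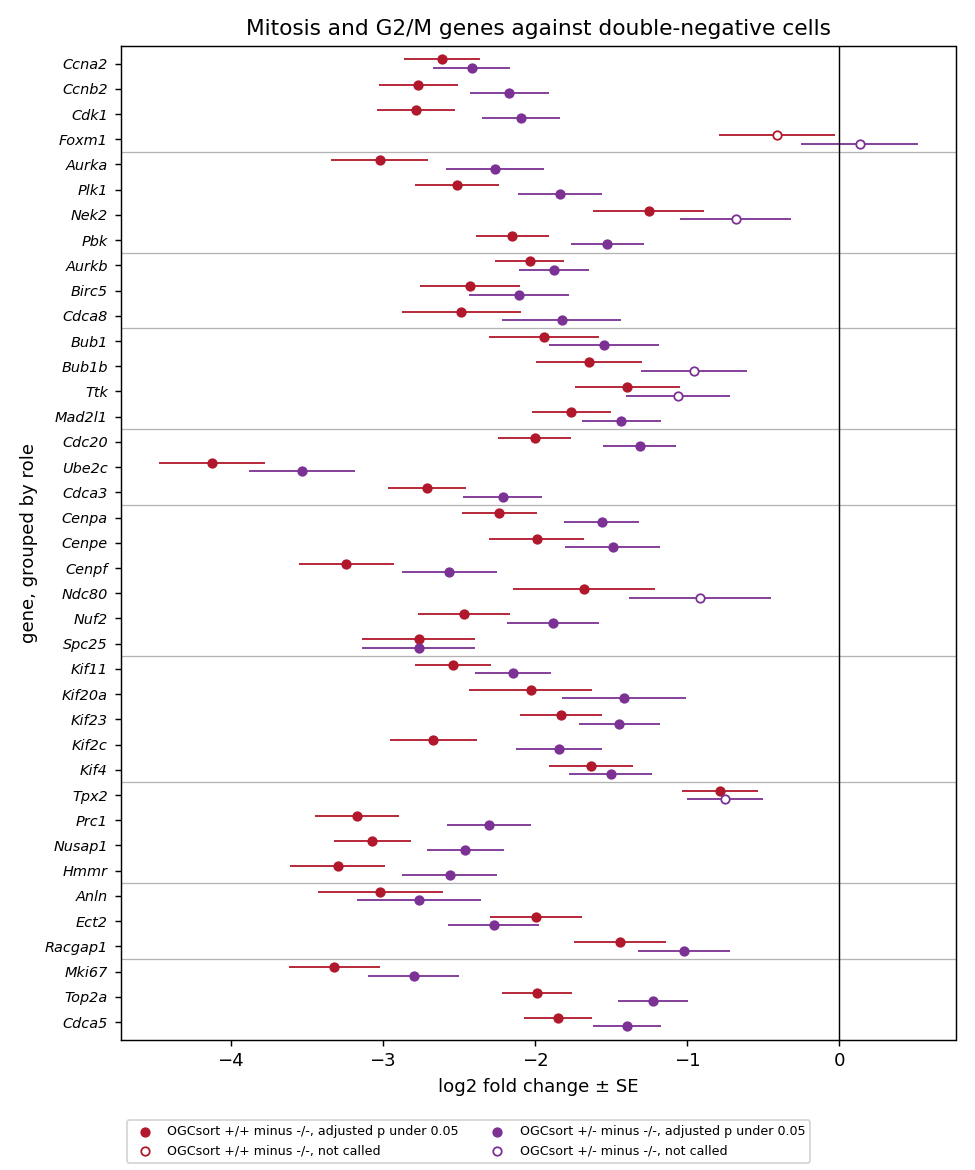
Log2 fold change ± SE of the 39 genes, grouped by role, in OGCsort +/+ (red) and +/- cells (purple) minus -/- cells; filled points passed an adjusted p of 0.05 in limma. All red points lie below 0, between -4.13 (Ube2c) and -0.41 (Foxm1), and all purple points but that of Foxm1 (0.13) do.

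The probe sets that did not represent a gene were mostly alike in direction. Of 86 probe sets of members, 82 passed the filter, and 81 of these had an estimate below 0 in +/+ against -/- cells, 62 of them called. In +/- against -/- cells 78 of the 82 had an estimate below 0, 49 of them called. At 1 probe set per gene, 9.03% of all genes were called lower in the first comparison and 7.62% in the second. No share over all probe sets was computed. Of the 26 genes with several probe sets past the filter, 25 had all estimates below 0 in the first comparison and 22 in the second. Besides those of Aurka, Nek2 and Bub1b described above, a probe set that did not represent the gene was not called in +/+ cells for Anln, Bub1, Cdca3, Cenpa, Cenpf, Hmmr, Kif11, Kif23, Kif2c, Nusap1, Racgap1 and Ttk. The -/- sample of sort number 4, with the most leukocyte RNA of its group, was below both other -/- samples in 32 of the 39 members, with a median log2 difference of -0.50. Without it, the median log2 fold change was -2.35 in +/+ and -1.91 in +/- cells. The weaker calls depended on single samples. In +/+ against -/- cells Tpx2 lost its call without any 1 of the +/+ samples, the +/- samples 7 and 9 or the -/- samples 4 and 5 (adjusted p up to 0.136). Nek2 and Ndc80 lost theirs without +/+ sample 5 or 6 or -/- sample 5 or 8 (adjusted p up to 0.116), and Ttk without +/+ sample 6 (adjusted p = 0.0573). In +/- against -/- cells Racgap1 lost its call without +/- sample 7 or 9 or any 1 of the -/- samples (adjusted p up to 0.139), and Kif20a without +/- sample 7 or 9 or -/- sample 5 or 8 (adjusted p up to 0.127). Bub1b gained a call there without -/- sample 4 (adjusted p = 0.0319).

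Within the CD45+ cells, +/+ was compared with +/-, which is also the test of whether the differences above differ from each other. No member was called (0 of 39), where limma called 0.0588% of all genes lower and 0.106% higher, and 13 of the 39 had an unadjusted p under 0.05, as did 1318 of the 16997 genes. The estimates of 37 members were below 0, with a median log2 fold change of -0.57 against -0.02 over all genes. In 14 of the 39 (35.9%) every OGCsort +/+ sample was below every +/- sample, as in 7.27% of all genes. In 0 was every one above, as in 7.58% of all genes. On chip A the +/+ samples of sort numbers 1 and 5 were in another wash run than all +/- samples. For members on that chip, group and wash run thus cannot be fully told apart. Prc1 had the largest estimate, at -0.87 (95% interval -1.46 to -0.28, limma adjusted p = 0.428), and Top2a had -0.76 (95% interval -1.26 to -0.26, adjusted p = 0.388). Mki67 had -0.52 (95% interval -1.16 to 0.12, adjusted p = 0.842). The intervals of 29 members reached a log2 fold change of -1, so a difference of that size was not excluded by these samples. The 9 neutrophil granule markers had a median log2 fold change of -4.00 in the same comparison, with 1 of them called lower, and their part in the values of the mitotic genes was not tested.

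The +/+ cells of the OGCsort set were compared with those of the CPGSE set. That set was sorted separately and had wash runs of its own, so that set and batch cannot be told apart. No member was called, nor any other gene (0% of 16997 by limma), and 3 members and 1096 genes had an unadjusted p under 0.05. The estimates of 37 members were below 0, with a median log2 fold change of -0.38 against 0.03 over all genes. In 2 of the 39 (5.13%), Mad2l1 and Nusap1, every OGCsort sample was below both CPGSE samples, as in 13.1% of all genes, and in 0 was every one above, as in 15.6% of all genes. Nusap1 had signals of 639, 738 and 699 in OGCsort, against 942 and 2090 in CPGSE samples, with a log2 fold change of -0.99 (95% interval -1.69 to -0.29, limma adjusted p = 0.648). Mki67 had 2790, 2830 and 2030 in OGCsort, against 1810 and 4590 in CPGSE samples, with a log2 fold change of -0.19 (95% interval -1.02 to 0.64, adjusted p = 0.981). The CPGSE samples differed from each other: sort number 6 was above sort number 4 in 38 of the 39 members, by a median of 1.99-fold. The summed neutrophil granule signal was 124000 in sort number 6 and 12200 in sort number 4, and the summed erythroid signal was 11800 and 7240. The part of these sums in the values of the mitotic genes was not tested. Without sort number 6, the median log2 fold change of the members was 0.15, and without sort number 4 it was -0.80, so the direction rested on 1 CPGSE sample.

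Other genes of the same pathway were described from lists, also chosen with earlier results of these data known. Of 110 further measured genes in 5 lists of mitotic regulators and machinery, 64 were called lower and 3 higher in +/+ than in -/- cells, where 9.03% of all genes were called lower and 12.9% higher. In +/- cells 51 were called lower and 2 higher, where 7.62% of all genes were called lower and 11% higher. With the wash run as a block (added after the data were seen), the counts called lower in +/- cells were 3 of 19 G2/M regulators, 5 of 18 condensin and cohesin genes, 5 of 30 kinetochore and checkpoint genes and 5 of 28 spindle and cytokinesis genes, where 2.78% of all genes were. Of 15 genes listed for the anaphase-promoting complex core, 0 were. Of 19 further G2/M regulators, 10 fell and 1 rose in +/+ cells, with a median log2 fold change of -1.57. Among them were Cdc25c and Cdc25b, phosphatases that activate Cdk1 complexes (-3.21 and -2.19), Cks2, a small Cdk1-binding protein (-2.33), and Plk4, the kinase of centriole duplication (-2.41). The one that rose was Lin37, a subunit of the MuvB complexes (1.64, limma adjusted p = 0.042), which was not called with the wash run as a block. Its signals were 419, 214 and 358 in +/+ and 34.3, 230 and 49.5 in -/- samples. The groups overlapped, and 1 of the 3 -/- samples was above the floor. Of 18 condensin and cohesin genes, which fold and hold chromosomes, 12 fell and 0 rose (median -1.47), with Smc2 at -2.57, Ncapg2 at -2.81 and Smc4 at -2.14.

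Of 30 other measured kinetochore and checkpoint genes, 24 fell and 1 rose in +/+ cells (median -1.46). Incenp, the scaffold of the chromosomal passenger complex, fell by 2.46 and Kntc1, a checkpoint protein of the outer kinetochore, fell by 2.15 on the log2 scale. Nsl1, a subunit of the Mis12 complex, was the one that rose (1.70). Of 28 other measured spindle and cytokinesis genes, 17 fell and 0 rose (median -1.37), among them Kifc1, a minus-end motor (-2.38), and Cit (citron kinase, -2.60). Of 15 genes listed for the anaphase-promoting complex core, to which Ube2c and Cdc20 bind, 1 fell and 1 rose, with a median log2 fold change of -0.11. The list includes Fzr1, an activator and not a core subunit. A count of 1 in 15 is near the 9.03% of all genes called lower and the 12.9% called higher, and is no result about this list. The one that fell was Fzr1, the activator of late mitosis and G1 (-2.14, limma adjusted p = 0.00407), and the one that rose was Anapc4 (0.92, adjusted p = 0.0231). In +/- cells the same list had 1 called lower and 1 called higher, where 7.62% and 11% of all genes were, and a median of -0.04.

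The G1 list was mixed. Of 15 G1 cyclins, their kinases and Cdk inhibitors, 5 fell and 4 rose in +/+ cells, where 9.03% of all genes were called lower and 12.9% higher, with a median log2 fold change of -0.43. Cdk6 (2.72), Ccnd2 (2.50), Ccnd1 (2.41) and Cdk4 (1.06), the cyclin D and kinase pairs that drive G1, rose. Ccne1 (-2.62) and Ccne2 (-2.51), the cyclins of the G1/S step, fell, as did Ccnd3 (-1.49) and the Cdk4 and Cdk6 inhibitors Cdkn2c (-2.57) and Cdkn2d (-2.56). In +/- cells 5 of the 15 fell and 2 rose, where 7.62% of all genes were called lower and 11% higher, with a median of 0.43. A count of 2 in 15 is near that 11% and is no result about this list. The wash run as a block left 5 called lower and 3 higher in +/+ cells (median 0.00022), where 7.34% of all genes were called lower and 11% higher. In +/- cells it left 3 lower and 1 higher, where 2.78% of all genes were called lower and 3.6% higher, and the median turned to -0.41. The 1 that rose there is near that share and is no result about this list.

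**Figure D5:**
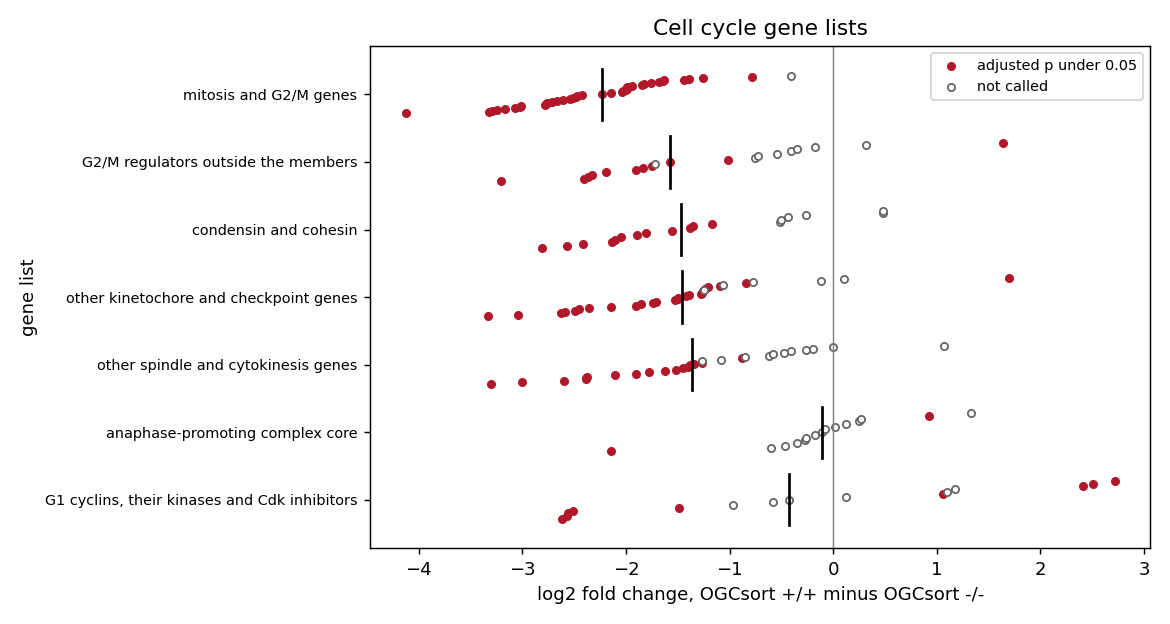
Log2 fold change of OGCsort +/+ minus -/- cells for each gene (points) of the mitosis and G2/M genes and of 6 other cell cycle lists (rows), with the median of each list as a line; filled points passed an adjusted p of 0.05 in limma. The medians of the 4 lists of mitotic regulators and machinery lie between -1.57 and -1.37, that of the anaphase-promoting complex core lies at -0.11, and the G1 list has called genes on both sides.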

How the data were processed

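Linear signal intensity per probe set was deposited by the authors for MOE430A and MOE430B arrays; per the submitters' processing notes they were made with MAS5 (no version is given). The deposited intensity values had a trimmed mean of 1500 on every array, with 2% removed at each end. Here the arrays were brought to a common trimmed mean of 500 before log2(signal + 32) was taken. Probe sets with a signal over 100 in 2 or more of the 11 samples were kept. Array controls were dropped, and for the 100 probe sets on both chips the chip A copy was used. Genes were named from the platform annotation: 34945 probe sets name 1 gene, 932 several and 9160 none, and only the first kind was named.

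The tests used limma 3.58.1 under R 4.3.3 (lmFit, then eBayes with a trend), each chip by itself, with Benjamini-Hochberg adjustment over 40405 probe sets and a threshold of 0.05. Comparisons within OGCsort used its 9 samples and that with CPGSE all 11. Wash runs were inferred from gaps of over 30 minutes between the times in the run records, which hold no measurement. The time used was the hybridization date of each array, and the name wash run stands for arrays grouped by it. Scripts were tested on simulated data. Depth does not apply to arrays, and the number of arrays limits the precision.

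The members and lists were chosen with earlier results of these data known. Values of every sample are given for the member of each role with the highest mean signal or the largest difference between +/+ and -/- cells, for Mki67, Top2a and Cdk1, for members not called, and for up to 6 that pass in the last comparisons. Of each other list up to 4 members with a small adjusted p, and those moving against the list, were named. Some with a smaller adjusted p were left out, such as Depdc1b among the spindle and Cenpk among the kinetochore genes. The values of Tpx2, Ndc80, Mad2l1 and Nusap1, and the further called genes of the G1 list, were added after they were seen. Alternatives covered the pseudocount, filter, quantile normalization, trend, array weights, samples in the fit, blocks, choice of probe set, CPGSE in place of OGCsort +/+, and leaving out each sample.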

Additional observations from a re-analysis of the deposited data

How the results depend on the processing

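Across the pseudocounts, filters, quantile normalization, eBayes without a trend, array weights, the samples in the fit and the probe set from chip A first, the counts of members called and their medians stayed within 1.5 times or 1 SD of the values reported. With the mean over all probe sets of a gene the median log2 fold change was -2.03 in +/+ against -/- and -1.43 in +/- against -/- cells, and with CPGSE in place of OGCsort +/+ it was -1.85 against -/- and -0.16 against +/- cells. With the wash run as a block, 11 members were called in +/- against -/- cells, with a median of -1.61; the cause was not tested. Leaving out 1 sample gave 34 to 38 members called lower and a median between -2.35 and -2.16 in +/+ against -/-, 30 to 34 called and -1.91 to -1.69 in +/- against -/-, 0 called and -0.63 to -0.41 in +/+ against +/-, and 0 called and -0.80 to 0.15 in OGCsort against CPGSE, where the highest value, without the CPGSE sample of sort number 6, reversed the direction. Without that sample Mki67 was at 0.47 in this comparison, and at -0.86 without the other CPGSE sample. Foxm1 in +/- against -/- cells turned to -0.78 with the wash run as a block, -0.13 with the mean over all probe sets, to -0.11 without the +/- sample of sort number 7 and to -0.23 without the -/- sample of sort number 8, the low end of a range that reached 0.31 without the -/- sample of sort number 4. Groups shared at most 1 sort number, so the numbers do not pair the samples; with the sort number as a random replicate block 38, 34, 0 and 0 members were called lower in the 4 comparisons, with medians of -2.22, -1.85, -0.55 and -0.43. The wash run could not be fitted as a block for OGCsort against CPGSE, since each set had runs of its own. A signal near the floor of 100, as in Anln, Ndc80 and Kif20a, limits the fold that can be measured.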
